A study of Rattus norvegicus with 29 samples.

Results

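The miRNAs described here are the pancreas-enriched miR-375, miR-216a, miR-216b and miR-217 in rat plasma, taken as every miRNA in the count table whose name carried exactly one of those stems, whichever arm of the hairpin it came from. The rule found 8 of 754 miRNAs, both arms of each of the 4 hairpins, and all 8 passed the filter on low counts. The table writes them with the prefix rno-, which is left out of most sentences here. Plasma came from adult male Sprague-Dawley rats, drawn from the lateral tail vein 48 h after surgery at the University of Eastern Finland (UEF), Monash University or UCLA. Of the 29 rats, 12 were from UEF, 8 from Monash and 9 from UCLA. By condition, 10 rats were sham-operated experimental controls, 10 had lateral fluid-percussion injury, a model of traumatic brain injury (TBI), without later epilepsy (TBI−), and 9 had the injury with later epilepsy (TBI+). Epilepsy was scored from continuous video-EEG over 4 weeks in the seventh month. UEF gave 4 sham, 4 TBI− and 4 TBI+ rats, Monash 3, 3 and 2, and UCLA 3 of each. The labels name no transgene and no drug under test. The sham-operated controls shared anaesthesia and surgery with the injured rats but not the impact.

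miR-375 is abundant in the endocrine islets of the pancreas, where it restrains insulin release and supports beta-cell mass, and it is also made by other neuroendocrine and mucosal epithelial cells. miR-216a, miR-216b and miR-217 are made from one stretch of the genome and are known mainly from the acinar cells that secrete digestive enzymes. Both kinds are known as plasma markers of pancreatic cell damage. In plasma, a change in the number of cells that release a miRNA and a change in the amount each cell releases cannot be told apart.

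The 8 mature sequences are shown because the results turn on telling them apart, above all miR-216a-5p from miR-216b-5p. They were taken from RefSeq on rat build GRCr8, where all 8 members matched, are written from the 5′ to the 3′ end, and have the seed (bases 2 to 8, which pair with target mRNAs) in capitals.
miR-375-3p: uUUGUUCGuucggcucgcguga
miR-375-5p: gCGACGAGccccucgcacaaacc
miR-216a-5p: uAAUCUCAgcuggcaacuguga
miR-216a-3p: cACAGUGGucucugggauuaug
miR-216b-5p: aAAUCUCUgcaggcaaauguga
miR-216b-3p: cACACUUAcuuguagagauu
miR-217-5p: uACUGCAUcaggaacugacugg
miR-217-3p: aUCAGUUCcuaaugcauugccu

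No member shared its seed with another member or with any other of the 693 mature rat miRNAs in that reference. miR-216a-5p and miR-216b-5p were identical at 18 of 22 bases (81.8%) and at 6 of the 7 seed bases. Counted from the 5′ end of miR-216a-5p, they differed by U1A, A8U, U11A and C17A, of which A8U lies in the seed. The 3p arms of the same hairpins were identical at 9 of 20 aligned bases (45%). Reads of miR-216a-5p and miR-216b-5p are therefore the ones that mapping could most easily exchange, and whether the authors allowed mismatches is not given in the sources used here.

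On GRCr8, Mir375 lies on the minus strand at chr9:83906582-83906656. Mir216b (chr14:106714026-106714127), Mir216a (chr14:106725077-106725182) and Mir217 (chr14:106732485-106732589) follow each other on the plus strand, with 10949 bases between the first pair and 7302 bases between the second. The hairpins of Mir216a and Mir216b are shown because the balance between their arms differed between sites, with the 5p and then the 3p arm in capitals.
Mir216a: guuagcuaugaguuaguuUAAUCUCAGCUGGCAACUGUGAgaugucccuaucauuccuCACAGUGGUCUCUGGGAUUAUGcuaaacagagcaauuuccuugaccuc
Mir216b: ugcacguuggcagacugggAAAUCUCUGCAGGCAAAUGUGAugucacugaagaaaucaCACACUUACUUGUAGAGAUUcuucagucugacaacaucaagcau
The authors counted on the older build Rnor_6.0, so these positions locate the genes and were not used for any count.

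Depth was the sum of miRNA counts per rat, from 1162307 to 5223469 with a median of 2713557, and 713 to 748 miRNAs had at least 1 count. Levels are given as CPM, counts scaled to a common library size, with TMM factors that correct the total for miRNAs that dominate it. The library labelled UEF sham rat 3 stood apart with a TMM factor of 0.333. The liver miRNA miR-122-5p took 55.1% of its counts against 0.634% in the lowest library. UEF sham rat 4, with 41.3% miR-122-5p, had a factor of 1.17, and what set the low factor was not tested. UEF TBI− rat 2 had the highest ratio of the red-cell miRNA miR-451 to miR-23a-3p, a marker of hemolysis, at −0.873 on the log2 scale in a range that began at −3.57. The libraries labelled TBI+ at Monash and at UCLA also stood apart from the rest of their sites in miR-216a-5p and miR-216b-5p, as described below. Several results that rest on them are therefore given with and without those 5 rats. The correlations between miRNAs and the arm ratios between UEF and Monash are given only with them. For these 5 libraries the labels were taken as given, and an exchange of labels or a shared batch was not tested.

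rno-miR-375-3p was the most abundant member and ranked 66 of 751 tested miRNAs by mean CPM, with 92.5% of all member counts. Its counts ran from 522 to 17474 per rat, and its level averaged 1320.7 ± 976 CPM (SD, n = 29) with a lowest value of 321, a median of 1168 and a highest of 5812. rno-miR-217-5p came next at 41.0 ± 11.6 CPM (rank 341), with a lowest value of 20.1, a median of 38.0 and a highest of 60.9. Its spread between rats, a biological coefficient of variation of 0.287, was narrow: only 5.59% of tested miRNAs had a lower one. rno-miR-216a-5p averaged 15.3 ± 5.58 CPM and rno-miR-216b-5p 13.1 ± 9.28 CPM, which places both among low-abundance plasma miRNAs. The plot of main-arm levels shows all 29 rats.

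**Figure D1:**
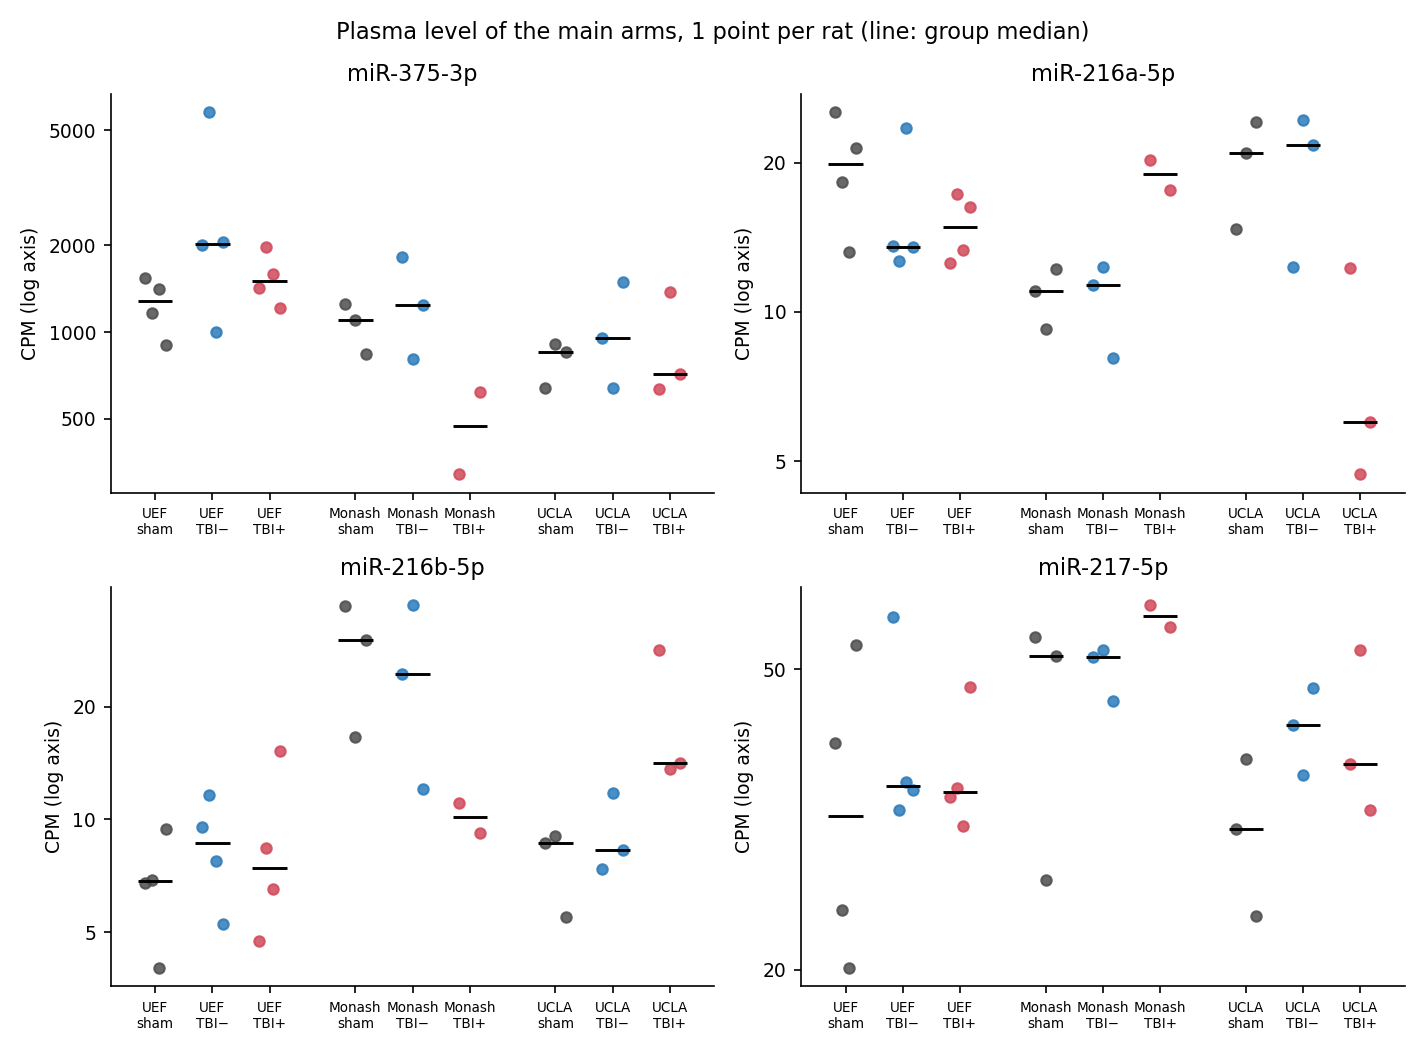
Plasma level (CPM, log axis) of miR-375-3p, miR-216a-5p, miR-216b-5p and miR-217-5p in each of the 29 rats, by site and condition; points are rats and lines are group medians. miR-375-3p reaches 5812 CPM in 1 UEF TBI− rat, and miR-216b-5p lies at 11.1 and 9.22 CPM in the Monash TBI+ rats and at 12.1 CPM or more in the other Monash rats.

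Partner arms were scarce. miR-375-5p averaged 15.5 CPM, miR-216a-3p 11.5 CPM, miR-216b-3p 11.5 CPM and miR-217-3p 6.20 CPM (rank 718). miR-217-3p had 0 counts in UEF sham rats 2 and 3, which at their depth allows up to 1.22 and 1.72 CPM (a floor of 3 counts per library, for counting error only), and at least 10 counts in 22 of 29 rats. Summed over all rats, the 3p arm of miR-375 had 92.1 times the counts of its 5p arm and the 5p arm of miR-217 had 6.30 times those of its 3p arm. miR-216a and miR-216b had no such dominant arm, with 5p to 3p ratios of 1.36 and 1.07.

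**Figure D2:**
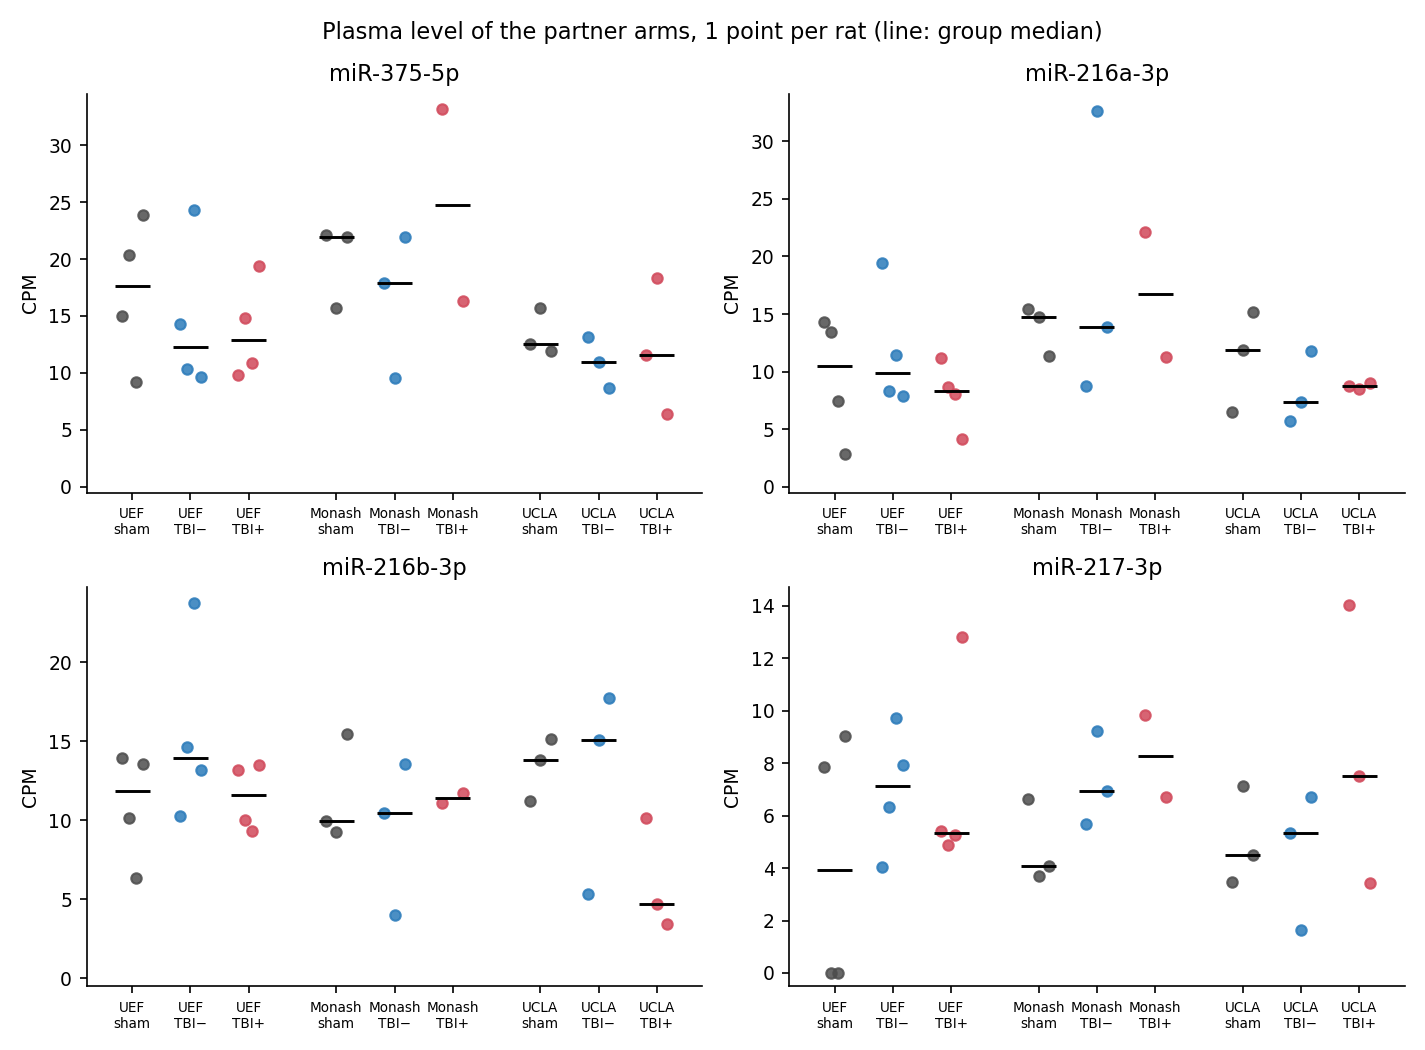
Plasma level (CPM, linear axis) of the less abundant arms miR-375-5p, miR-216a-3p, miR-216b-3p and miR-217-3p in each rat by site and condition; lines are group medians. Single rats such as Monash TBI− rat 2 for miR-216a-3p (32.7 CPM) lie far above their group median.

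Whether plasma miRNAs differed between sites was the first question of the study, which had harmonized surgery and sampling across the 3 laboratories. In the edgeR model with site and condition, 111 of 751 miRNAs (14.8%) differed between sites at an adjusted p below 0.05, and among the members 2 of 8 did. These were miR-216b-5p (adjusted p = 0.00415) and miR-375-3p (adjusted p = 0.0211). Between UEF and Monash 9.99% of miRNAs passed, with miR-216b-5p as the only member. Between UEF and UCLA 9.32% passed, with miR-375-3p as the only member. Between Monash and UCLA 5.46% passed and 0 of 8 members did in edgeR, whereas DESeq2 called miR-216b-5p. At an unadjusted p below 0.05 there were 148 miRNAs (19.7%), with miR-216a-3p, miR-216b-5p, miR-217-5p and miR-375-5p among them.

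miR-375-3p was highest in UEF plasma. Its level at UEF was 904 CPM in the lowest of 12 rats, 1482 at the median and 5812 in the highest. Monash rats ran from 321 over a median of 968 to 1828 CPM, and UCLA rats from 636 over 851 to 1492 CPM. All 12 UEF rats lay above the UCLA median and 6 of them above every UCLA rat, so the sites overlapped but were shifted. The difference between UEF and UCLA was 0.94 on the log2 scale (SE 0.28, 95% interval 0.36 to 1.51, adjusted p = 0.0295). Between UEF and Monash it was 0.89 (SE 0.30, adjusted p = 0.0537), and between Monash and UCLA 0.05 (95% interval −0.59 to 0.68, adjusted p = 0.950).

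In sham-operated controls alone no site difference of miR-375-3p was called. UEF sham rats had 1543, 1168, 1405 and 904 CPM. Monash sham rats had 1255, 1099 and 837 CPM, and UCLA sham rats had 642, 910 and 851 CPM. The sham rats of UEF and Monash overlapped, and 1 of 3 UCLA sham rats lay within the UEF range. With sham rats alone the difference between UEF and UCLA was 0.63 (adjusted p = 0.514), and with injured rats alone it was 1.06 (adjusted p = 0.0974), and the test of an injury effect that differs between sites did not pass for miR-375-3p (adjusted p = 0.662). Without UEF TBI− rat 2, the rat with 5812 CPM, it was 0.72 (adjusted p = 0.0571). Without miR-122-5p in the library totals it was 0.93 (adjusted p = 0.0332), and in this comparison the liver list had 4 of 5 miRNAs higher at UEF.

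miR-216b-5p was lowest in UEF plasma and highest in Monash plasma. UEF rats had 4.02 CPM at the lowest, 7.32 at the median and 15.2 at the highest, against 9.22, 20.5 and 37.3 at Monash and 5.48, 9.04 and 28.4 at UCLA. In 5 of 8 Monash rats the level exceeded that of every UEF rat, and 0 of 12 UEF rats reached the Monash median. The difference between UEF and Monash was −1.52 on the log2 scale (SE 0.32, 95% interval −2.17 to −0.87, adjusted p = 0.00577). Between Monash and UCLA it was 0.99 (SE 0.35, adjusted p = 0.106). The call between UEF and Monash was lost with scaling to miR-28-3p, the reference miRNA of the study (−1.39, adjusted p = 0.0631), and with injured rats alone (−1.13, adjusted p = 0.219), while sham rats alone gave −2.03 (adjusted p = 0.0162).

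The other main arms of the cluster had no called site difference. miR-216a-5p averaged 16.7 ± 4.50 CPM in UEF, 12.8 ± 4.14 in Monash and 15.7 ± 7.50 in UCLA rats, with adjusted p from 0.384 to 0.868 for the site pairs. miR-217-5p averaged 37.2 ± 11.3 CPM in UEF, 50.2 ± 10.6 in Monash and 37.9 ± 8.86 in UCLA rats, and the difference between UEF and Monash was −0.44 (SE 0.19, adjusted p = 0.128). miR-217-5p thus had the same order of sites as miR-216b-5p with smaller differences, and miR-216a-5p had the opposite order. Site stands for animals, feed, housing, drugs given around surgery, operators, sampling and shipping at once, and these cannot be told apart here. The paper lists different chow at each site, added feeding at UEF and Monash, and another analgesic and antibiotic chow at UCLA.

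Ratios of counts within a library need no scaling, and they showed where the cluster members parted. The log2 ratio of miR-216a-5p to miR-216b-5p averaged 1.09 ± 0.58 at UEF and −0.66 ± 1.03 at Monash, a difference of 1.76 (two-sided permutation test, adjusted p = 0.00432 over 12 ratio tests). For miR-216a-5p to miR-217-5p the means were −1.13 ± 0.49 and −1.98 ± 0.36 (permutation test, adjusted p = 0.00432). For miR-216b-5p to miR-217-5p they were −2.22 ± 0.43 and −1.32 ± 0.86 (permutation test, adjusted p = 0.0351). Relative to miR-217-5p, then, miR-216a-5p was higher and miR-216b-5p lower at UEF than at Monash, but the call for miR-216b-5p was lost with any 1 of 10 rats left out, where the permutation test gave an adjusted p of up to 0.0832. Without the 5 TBI+ rats of Monash and UCLA these 3 differences were 2.27, 0.97 and −1.30 (permutation test, adjusted p = 0.00129, 0.00302 and 0.00259). Those 5 rats were set aside after their values in these miRNAs had been seen, and such a choice can itself widen the differences. These adjusted p therefore give no added support. None of the other 9 tests, which compared UEF with UCLA, Monash with UCLA and TBI with sham, passed, with adjusted p from 0.112 to 0.456.

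The balance of arms differed between the same sites. The log2 ratio of the 5p to the 3p arm of miR-216b averaged −0.67 ± 0.55 at UEF and 0.94 ± 1.17 at Monash (permutation test, adjusted p = 0.00736 over 16 tests added after the values were seen). For miR-216a it was 0.88 ± 0.83 at UEF and −0.29 ± 0.66 at Monash (permutation test, adjusted p = 0.0176). Between UEF and Monash the log2 difference of miR-216b-3p was 0.27 (SE 0.29, adjusted p = 0.601) beside the −1.52 of its 5p arm. For miR-216a both arms leaned apart without a call, with 0.38 (SE 0.26, adjusted p = 0.384) for the 5p and −0.73 (SE 0.29, adjusted p = 0.108) for the 3p arm. The arm ratio of miR-375 had means of 6.80 ± 1.09 and 5.56 ± 1.06 (permutation test, adjusted p = 0.0929), and that of miR-217 had 3.15 ± 1.66 and 2.91 ± 0.35 (permutation test, adjusted p = 0.720). At UCLA the arm ratios also parted by the TBI+ label, which was not tested. The miR-216b arm ratio there was 1.47 to 1.98 in TBI+, −1.08 to 0.45 in TBI− and −1.44 to −0.37 in sham rats. At Monash it was −0.34 and 0 in TBI+ rats, −0.16 to 3.17 in TBI− rats, which overlapped them, and 0.83 to 1.87 in sham rats. At UEF TBI+ (−1.45 to 0.17) and TBI− rats (−1.60 to −0.10) overlapped. The miR-216a arm ratio at UCLA was −0.82 to 0.48 in TBI+, 0.86 to 1.71 in TBI− and 0.67 to 1.15 in sham rats. For miR-216a, TBI+ and TBI− rats overlapped at Monash (−0.12 to 0.63 and −1.39 to 0.37) and at UEF (0.16 to 1.93 and −0.51 to 1.03). These ratios share the 5p counts of the ratio of miR-216a-5p to miR-216b-5p.

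**Figure D3:**
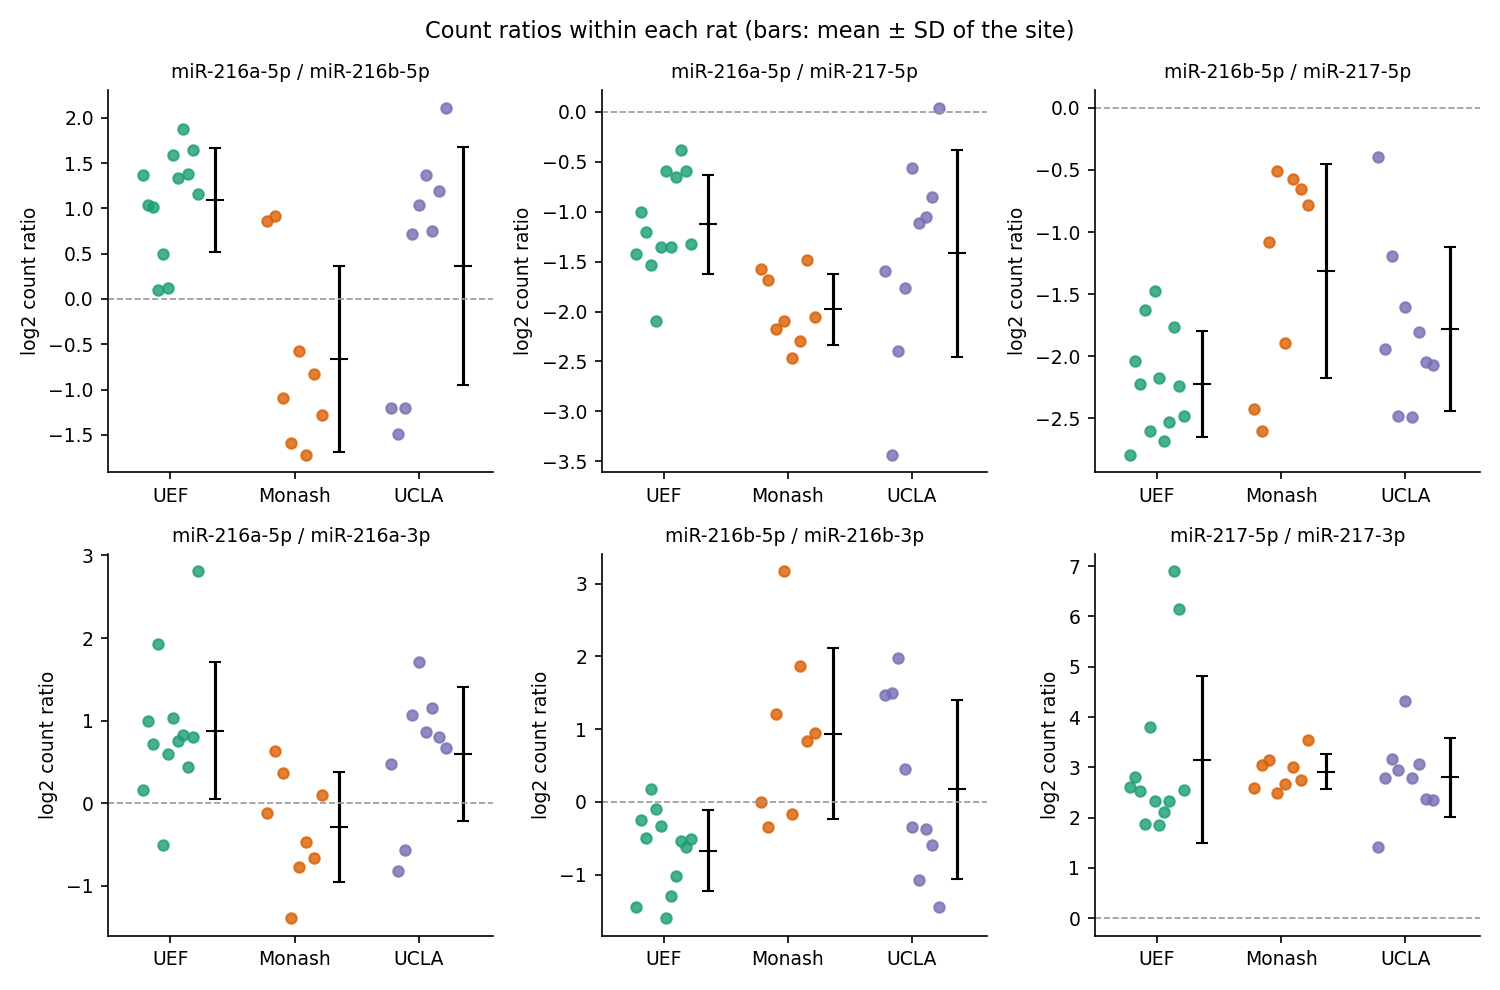
Log2 count ratios within each rat for 3 pairs of cluster members (upper row) and for the 5p and 3p arms of 3 hairpins (lower row), by site; points are rats and bars are mean ± SD. For miR-216a-5p over miR-216b-5p all 12 UEF rats lie above 0, and Monash and UCLA each hold rats on both sides of 0.

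The spread of the miR-216a-5p to miR-216b-5p ratio within Monash and within UCLA followed the labels for epilepsy. At UEF all 12 rats had a ratio above 0, from 0.09 to 1.87 on the log2 scale. At Monash the 6 sham and TBI− rats had ratios from −1.72 to −0.57, whereas both TBI+ rats had ratios of 0.86 and 0.92. At UCLA the 6 sham and TBI− rats had ratios from 0.72 to 2.11, whereas the 3 TBI+ rats had ratios from −1.49 to −1.20. The rats labelled TBI+ thus lay on opposite sides of their own site's other rats at Monash and at UCLA, without overlap, while at UEF the ranges of TBI+ (0.09 to 1.37) and TBI− rats (0.12 to 1.58) coincided. The grouping was noticed in the data and not planned.

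**Figure D4:**
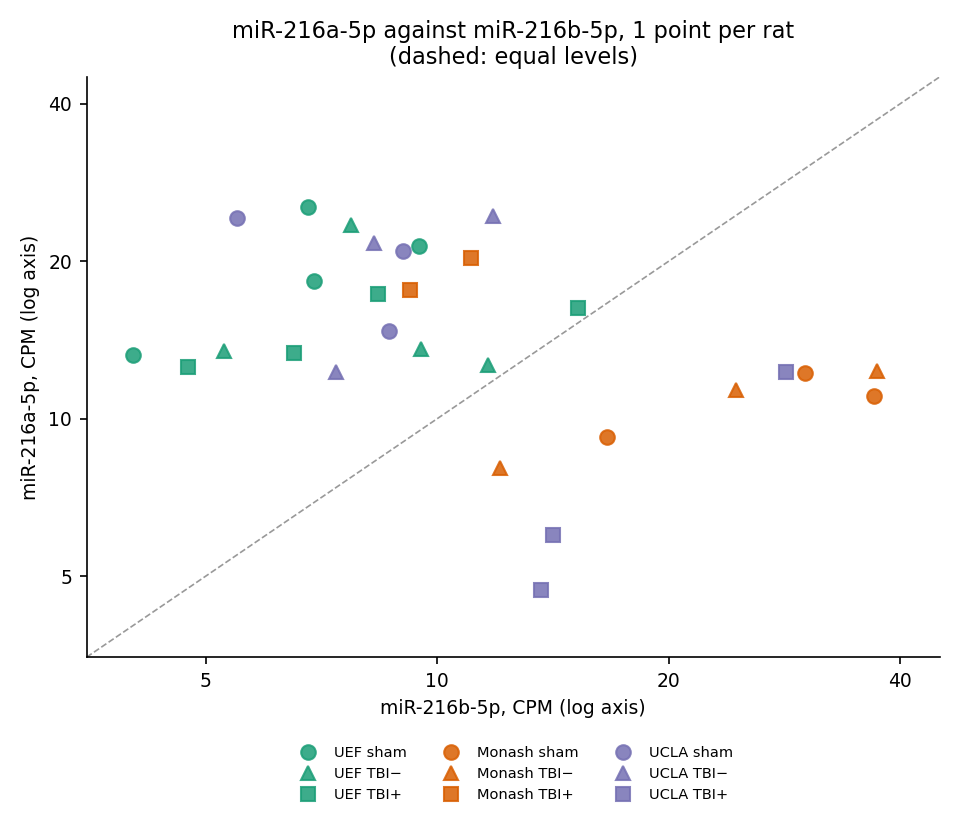
Level of miR-216a-5p against miR-216b-5p (CPM, both axes log) in each of the 29 rats, with colour for site, shape for condition and a dashed line where the levels are equal. Above the line lie 20 rats, including both Monash TBI+ rats, and below it lie 9 rats, the 6 Monash sham and TBI− rats and the 3 UCLA TBI+ rats.

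Both members contributed to the split. miR-216a-5p was 20.3 and 17.6 CPM in the Monash TBI+ rats, against 11.4, 12.3 and 8.05 CPM in Monash TBI− rats. In UCLA TBI+ rats it was 12.3, 4.70 and 6.0 CPM, against 12.3, 24.4 and 21.7 CPM in UCLA TBI− rats. Its TBI+ rats were thus high at Monash and low at UCLA. miR-216b-5p showed the reverse, with 11.1 and 9.22 CPM in Monash TBI+ rats against 24.5, 37.3 and 12.1 CPM in Monash TBI− rats. In UCLA TBI+ rats it was 28.4, 13.6 and 14.1 CPM, against 7.38, 11.8 and 8.27 CPM in UCLA TBI− rats. At these 2 sites no TBI+ rat overlapped the TBI− rats in either miRNA, although for miR-216a-5p at UCLA the nearest rats of the groups both had 12.3 CPM. Groups of 2 or 3 rats often part in this way: of all 751 miRNAs, TBI+ and TBI− rats did not overlap for 37.2% at Monash (4 of 8 members), 32.5% at UCLA (2 of 8) and 18.2% at both (2 of 8).

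Whether the difference between TBI+ and TBI− rats itself differed between sites was tested with a coefficient for each site and condition, a test added after the split had been seen. The TBI+ minus TBI− difference at Monash less that at UCLA was 2.16 on the log2 scale for miR-216a-5p (SE 0.57, 95% interval 0.99 to 3.32, adjusted p = 0.00909). For miR-216b-5p it was −2.32 (SE 0.73, 95% interval −3.81 to −0.83, adjusted p = 0.0287). The other 6 members did not pass, and 117 of all 751 miRNAs (15.6%) did, so the 2 of 8 members stood near the share among all miRNAs. Over all 3 sites at once 9.05% of miRNAs passed, with miR-216a-5p as the only member (adjusted p = 0.0327). Within UCLA alone 6.66% passed and miR-216a-5p was lower in TBI+ rats (log2 difference −1.32, SE 0.39, adjusted p = 0.0342). Within Monash alone 8.52% passed and 0 of 8 members did. Within UEF, the site with most rats, 0 miRNAs passed (0%) in edgeR and 17 (2.26%) had an unadjusted p below 0.05, none of them a member.

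Calls in these tests were easily lost. For miR-216b-5p between Monash and UCLA, without UCLA TBI+ rat 1, which had 28.4 CPM, the difference was −1.75 (adjusted p = 0.148), and with library totals in place of TMM it was −1.57 (adjusted p = 0.349). miR-216a-5p stayed past the threshold in that contrast with each rat left out in turn, at 1.96 to 2.83. Its call over all 3 sites, however, was lost with any 1 of 7 rats left out (adjusted p up to 0.0956), with library totals (0.0814), with miR-28-3p scaling (0.107) and with the replicate number as a block (0.0514), and its call within UCLA was lost without any 1 of 4 UCLA rats (log2 difference −1.13 without TBI− rat 2, adjusted p = 0.133). In simulated libraries, a 4-fold change placed in Monash TBI+ rats alone was found for 25.0% of 200 miRNAs by this test, so most changes of that size would be missed.

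In the deposited table the 9 libraries with a ratio below 0 stood next to each other, in columns 15 to 23 of 29, where the last 6 Monash libraries are followed by the 3 UCLA TBI+ libraries. The sources used here do not say what the order of columns stands for, and no extraction or sequencing batch was given in the labels. Whether the order, a batch, an exchange of labels between the TBI+ libraries of Monash and UCLA, the site or the outcome goes with the split was not tested. Leaving out the 5 TBI+ rats of Monash and UCLA, chosen after their values in miR-216a-5p and miR-216b-5p had been seen, changed the site comparisons. The adjusted p of these miRNAs without the 5 rats therefore give no added support. miR-216b-5p was then lower at UEF than at Monash (log2 difference −1.79, adjusted p = 0.000403) and higher at Monash than at UCLA (1.63, adjusted p = 0.00190), with −0.16 between UEF and UCLA (adjusted p = 0.864). miR-216a-5p was then higher at UEF than at Monash (0.71, adjusted p = 0.0452) and lower at Monash than at UCLA (−0.90, adjusted p = 0.0142). For miR-375-3p the difference between UEF and UCLA was 0.98 (adjusted p = 0.0601), and the number of all miRNAs past the threshold between Monash and UCLA went from 41 to 180.

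The second question was whether injury changed plasma miRNAs at 48 h. Between TBI and sham rats, 9 of 751 miRNAs (1.2%) passed and 0 of 8 members did by edgeR, with 0 of 8 also at an unadjusted p below 0.05 (11.1% of all miRNAs) and no member past the threshold in DESeq2. Log2 differences of the members ran from −0.25 for miR-216a-5p to 0.59 for miR-217-3p, with a median of 0.09 against 0.03 over all miRNAs. miR-375-3p had 642 CPM at the lowest of 10 sham rats, 1004 at the median and 1543 at the highest. In the 19 injured rats it had 321, 1242 and 5812 CPM, and 6 injured rats lay above every sham rat. The difference was 0.27 (95% interval −0.24 to 0.78, adjusted p = 0.801), so an increase of more than 0.78 on the log2 scale lay outside the interval. Without the 5 TBI+ rats of Monash and UCLA it was 0.36 (adjusted p = 0.611), and no member passed. In simulated libraries of this design, with 200 of 745 miRNAs of all abundances changed 2-fold, 83.5% of the 200 were found. Fewer true changes make the adjusted threshold stricter, and recovery was not split by abundance. The share therefore does not say how often such a change in a member would be found.

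miR-217-5p had the narrowest interval. It ran from 20.1 over 34.4 to 55.2 CPM in sham rats and from 31.0 over 42.2 to 60.9 CPM in injured rats, with 5 of 10 sham rats below the lowest injured rat. The difference was 0.27 (SE 0.16, 95% interval −0.06 to 0.60, adjusted p = 0.604). For miR-216b-5p the interval was −0.36 to 0.77 and for miR-216a-5p −0.70 to 0.20. The log2 count ratio of miR-451 to miR-23a-3p, a marker of hemolysis, averaged −2.86 in sham and −2.15 in injured rats, a difference that was not tested. By its own PCR measure of this pair the study called none of these plasma samples hemolyzed. By absorbance, its other measure, a Monash and a UCLA sample lay slightly above its acceptance limit. With that ratio in the model the difference of miR-375-3p was 0.13 (adjusted p = 0.984).

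**Figure D5:**
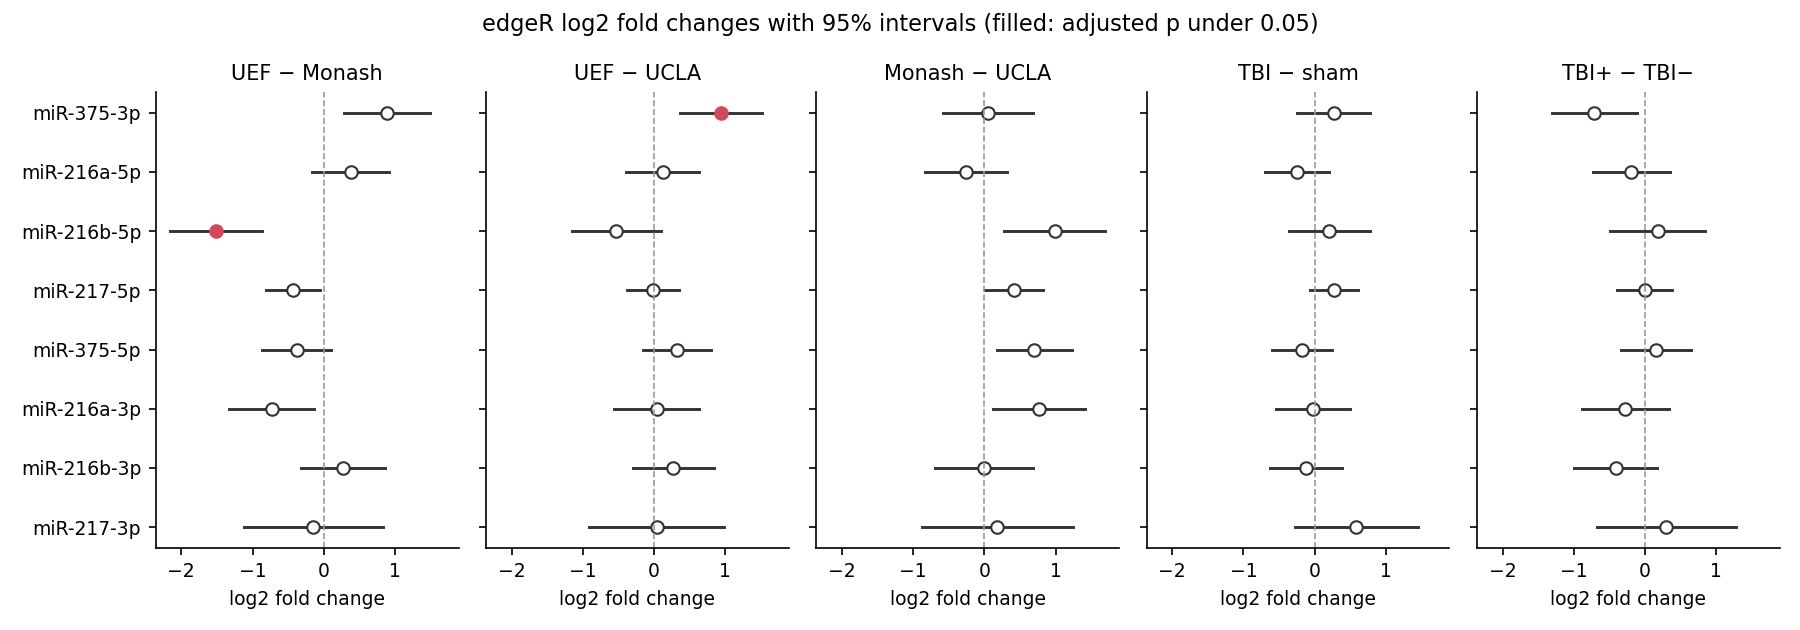
Log2 fold changes from edgeR for the 8 members with 95% intervals in 5 comparisons (3 site pairs, TBI against sham, TBI+ against TBI−); filled points have an adjusted p below 0.05. The filled points are miR-216b-5p between UEF and Monash and miR-375-3p between UEF and UCLA.

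Within sites, miR-375-3p had an injury difference of 0.76 for UEF rats (95% interval −0.09 to 1.62), −0.14 for Monash rats (−1.13 to 0.84) and 0.28 for UCLA rats (−0.69 to 1.24). The difference between sites in the injury effect passed for 8 miRNAs (1.07%) and for 0 of 8 members. The lowest adjusted p was 0.425, for miR-216b-5p, whose injury difference was 0.33 in UEF, −0.55 in Monash and 0.86 in UCLA rats. All members thus had intervals that held 0 within each site.

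The third question was whether the 48-h level foretold epilepsy. Between TBI+ and TBI− rats 0 of 751 miRNAs passed (0%) in edgeR and in DESeq2 the count also stayed at 0, and 18 (2.4%) had an unadjusted p below 0.05, with miR-375-3p as the only member among them. miR-375-3p was 638 CPM in the lowest of 10 TBI− rats, 1367 at the median and 5812 in the highest. The 9 TBI+ rats had 321, 1208 and 1971 CPM. The groups overlapped, with 3 TBI− rats above every TBI+ rat. The log2 difference was −0.71 (SE 0.29, 95% interval −1.31 to −0.11, unadjusted p = 0.0214, adjusted p = 0.998), and it was −0.42 without UEF TBI− rat 2. By site it was −0.81 for UEF, −1.45 for Monash and −0.18 for UCLA, and 95% intervals held 0 at UEF and UCLA. At Monash the 2 TBI+ rats, with 321 and 621 CPM, lay below all 6 other Monash rats (adjusted p = 0.127), and 23.7% of all miRNAs set these 2 rats apart from the other 6 in one direction or the other. TBI− rats compared with sham gave 0.62 (SE 0.28, adjusted p = 0.442), or 0.39 without UEF TBI− rat 2 (adjusted p = 0.689), and TBI+ rats compared with the same sham rats gave −0.09 (SE 0.29, adjusted p = 0.957).

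From rat to rat, 2 of the 6 pairs of main arms passed by rank correlation, in opposite directions, and none held within each site. On the positive side, miR-216b-5p and miR-217-5p had a Pearson r of 0.52 over 29 rats (permutation test, adjusted p = 0.0240 over 6 pairs) and a Spearman rho of 0.51 (permutation test, adjusted p = 0.0181). Without the 2 rats farthest from the median r was 0.45, and within sites it was 0.63 for UEF, 0.07 for Monash and 0.30 for UCLA, none past the threshold. Without UEF sham rat 3, the lowest in both, r over the rest was 0.45 (permutation test, adjusted p = 0.0892). miR-216a-5p and miR-217-5p had an r of −0.08 with TMM, and the sign turned without TMM factors, where r was 0.59 (permutation test, adjusted p = 0.00165). On the negative side, miR-216a-5p and miR-216b-5p had a Spearman rho of −0.52 (permutation test, adjusted p = 0.0181) and a Pearson r of −0.38 (permutation test, adjusted p = 0.133), or −0.41 without the 2 rats farthest from the median. Their points fell into the sets described above, and within sites r was 0.19 for UEF, −0.33 for Monash and −0.47 for UCLA. Without the 2 rats farthest from the site median of miR-216a-5p, it was 0.36 for UEF, 0.92 for Monash and −0.45 for UCLA. The sign at Monash thus rested on 2 rats. Without TMM factors r over all rats turned to 0.19. The 3 pairs with miR-375-3p had r from −0.18 to −0.17, with adjusted permutation p of 0.468, and these signs turned as well, to r from 0.07 to 0.29 both without TMM factors and with miR-28-3p scaling. Within sites their r ran from −0.82 (with miR-216a-5p at Monash) to 0.65 (with miR-217-5p at UCLA), none past the threshold after adjustment.

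Most like miR-375-3p in its pattern over 29 rats, among the 584 miRNAs that had 10 or more counts in each rat, were miR-203b-5p (rho 0.62), miR-200c-3p (0.57) and miR-205 (0.56), of which miR-200c and miR-205 are known from epithelia. For miR-216a-5p they were miR-711 (0.88), miR-664-1-5p (0.83) and miR-6318 (0.80). For miR-216b-5p they were miR-17-2-3p (0.74), miR-340-5p (0.73) and miR-877 (0.73). miR-217-5p was most like miR-291b (0.75), miR-384-3p (0.62) and miR-3547 (0.60). The 4 main arms thus had 12 different neighbours, and all points share libraries and depth. The arms of one hairpin were not alike either, with a rho of 0.01 for miR-216a, −0.20 for miR-216b and −0.19 for miR-375 but 0.54 for miR-217.

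Other miRNAs linked to the pancreas or to epithelia were seldom called. Of 13 other pancreas and islet related miRNAs, 1 differed between sites, miR-211-5p, which is related in sequence to the beta-cell miRNA miR-204 and was higher at UEF than at UCLA (0.92, SE 0.25, adjusted p = 0.0152). Of 14 epithelial miRNAs 0 differed between sites, against 14.8% of all miRNAs, and no list was tested against another. Between TBI and sham, 0 of 13 and 0 of 14 passed, and 0 of 7 red-cell miRNAs did. All 7 red-cell miRNAs had a positive log2 difference, with a median of 0.40 against 0.03 over all miRNAs. At Monash alone 0 of 7 were positive. The brain list had 4 of 11 miRNAs higher after TBI, led by miR-323-3p (1.21, SE 0.20, adjusted p = 0.000633). The paper had already named this leading miRNA as differentially expressed in its sequencing. The lists were chosen with earlier results of these data known, so the brain count is no independent test of brain miRNAs after injury. The liver list had 2 of 5 miRNAs lower after TBI, and the gut and liver list had 1 of 5 lower, where 1.2% of all miRNAs passed. At UEF alone 4 of 5 in each of these lists were called lower, where 3.86% of all miRNAs passed. At Monash and at UCLA 0 of 5 in each list passed. Between TBI+ and TBI− rats, all 14 epithelial miRNAs had a negative log2 difference with a median of −0.33, beside −0.71 for miR-375-3p and a median of 0.00 over all miRNAs, but 0 of them passed. Between UEF and Monash, members had a median of −0.26 against 0.06 over all miRNAs, the other pancreas list −0.15 and the epithelial list 0.24. Of the 14 epithelial miRNAs 12 had a positive difference there, the direction of miR-375-3p, as did 417 of all 751.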

How the data were processed

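Plasma small RNA was sequenced from 29 rats. Per the paper's methods, the authors used QIAseq miRNA libraries with unique molecular identifiers (inserts under 16 bp or identifiers under 10 bp were discarded), cutadapt, bowtie, Rnor_6.0 and miRBase v. 21. The versions of cutadapt and bowtie are not given in the sources used here, nor whether reads of one molecule were merged. The deposited values are raw counts of 754 miRNAs. Counts were analysed with edgeR 4.0.16 in R 4.3.3, with filterByExpr at a minimum of 10 counts (751 tested), TMM, a model of site and condition and the quasi-likelihood F test. P-values were adjusted over all tested miRNAs after Benjamini-Hochberg, threshold 0.05. DESeq2 1.42.0 was an alternative. The model was tested on simulated data. Log2 CPM had a prior count of 2. Ratios used counts plus 0.5, with permutation tests, exact for groups under 10 and otherwise with 100000 resamples (scipy 1.17.1, Python 3.11.15). Named miRNAs were all members, the 3 most alike to each by Spearman rho, and at most 3 called members of each list. Members and lists were chosen with earlier results of these data known. Replicate numbers did not pair rats: over 103 same-number pairs the mean correlation of deviations was −0.016, against 0.006 for 269 others. Figures used matplotlib 3.10.9.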

Additional observations from a re-analysis of the deposited data

Results flagged for a closer look

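In groups of 4 to 10 rats, the highest or lowest CPM was compared with its nearest neighbour by Dixon's test, and 11 of 64 groups held a rat that stood apart. Chance alone gives about 1 in 20 groups for independent, normally distributed values, but these groups share rats and 10 of the 11 were high values of right-skewed CPM. Over all miRNAs 16.04% of such groups held a rat that stood apart, against 17.2% for the members, so the count is not particular to them. miR-375-3p stood at 5812 CPM in UEF TBI− rat 2, with 2048 CPM in the next TBI− rat, and this library also had the highest miR-451 to miR-23a-3p ratio. miR-216b-5p was 28.4 CPM in UCLA TBI+ rat 1, apart from the other UCLA rats and from the other TBI+ rats, and miR-217-3p in the same rat was 14.0 CPM. miR-216a-3p was 32.7 CPM in Monash TBI− rat 2 and 22.1 CPM in Monash TBI+ rat 1, where miR-375-5p was 33.2 CPM. miR-216a-5p was 23.5 CPM in UEF TBI− rat 3 and miR-217-3p 12.8 CPM in UEF TBI+ rat 4. miR-217-5p was low in Monash sham rat 2 at 26.3 CPM and high in UEF TBI− rat 1 at 58.7 CPM. Their causes were not tested.

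The TBI+ minus TBI− difference at Monash less the same at UCLA was 2.16 for miR-216a-5p and −2.32 for miR-216b-5p on the log2 scale, by a test of the difference itself. In the ratio of the 2, the TBI+ libraries of each site had the sign of the other site's sham and TBI− libraries. In the share of miR-122-5p they lay within the range of their own site's other libraries. It was 9.71% and 9.07% in Monash TBI+ libraries, with 2.04% to 12.9% in the others there. At UCLA it was 1.55%, 1.07% and 1.16% in TBI+ libraries, with 0.634% to 2.68% in the others. An exchange of labels between the TBI+ libraries of Monash and UCLA, a batch or another origin of the pattern in the ratio was not tested.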

How the results depend on the processing

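Of 1668 values under other settings 1633 kept their side of the threshold with no called value changing sign, and of 4234 values with 1 rat left out 4185 did. Among these, 104 and 106 values that were not called turned sign. Settings added after the data were seen were the 2 UEF rats that stand apart (sham rat 3, TBI− rat 2) left out, the 5 TBI+ rats of Monash and UCLA left out, and all settings of the arm ratios and of the epilepsy difference by site. The 5 TBI+ rats were set aside for their values in miR-216a-5p and miR-216b-5p. Calls of these miRNAs and their ratios gained without the 5 rats therefore give no added support. Where a call changed, the cause was not tested.

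With the 3 sites together, adjusted p for miR-216b-5p was 0.0570 with miR-28-3p scaling and 0.202 with injured rats alone. For miR-375-3p it was 0.0753 with library totals, 0.549 with sham rats, 0.0525 with injured rats and 0.0856 without both UEF rats, and 0.0112 to 0.0621 with 1 rat left out, lost without UEF TBI− rat 2. For miR-216a-5p it was 0.0274 without the 5 TBI+ rats. Between UEF and Monash, log2 differences were −1.39 (miR-28-3p) and −1.13 (injured rats) for miR-216b-5p, −0.49 for miR-217-5p (DESeq2, adjusted p = 0.0373), 0.71 for miR-216a-5p without the 5 TBI+ rats, and for miR-375-3p 0.92 with 10 counts in every rat, 0.85 with DESeq2 and 0.61 to 0.995 with 1 rat left out, gained without UEF sham rat 4, UEF TBI− rat 3 or UCLA TBI+ rat 2. Between UEF and UCLA, miR-375-3p was 0.82 (totals), 0.90 (miR-28-3p), 0.63 (sham), 1.06 (injured), 0.71 (both UEF rats out), 0.98 (the 5 TBI+ rats out) and 0.72 to 1.08 with 1 rat left out, lost without UEF TBI− rat 2, UEF TBI+ rat 2, UCLA sham rat 1, UCLA TBI− rats 1 and 2 or UCLA TBI+ rat 3. Between Monash and UCLA, miR-216b-5p was 1.02 (DESeq2), 1.63 (the 5 TBI+ rats out) and 0.82 to 1.2 with 1 rat left out, gained without either Monash TBI+ rat or UCLA TBI+ rat 1, and miR-216a-5p was −0.90 without the 5 TBI+ rats.

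For the epilepsy difference by site, adjusted p of miR-216a-5p was 0.0814 (totals), 0.107 (miR-28-3p), 0.0514 (replicate number as a block) and 0.00994 to 0.0956 with 1 rat left out, lost for 7 rats, all at Monash or UCLA. At UCLA alone its log2 difference was −1.91 to −1.13 and was lost without TBI− rats 2 or 3 or TBI+ rats 2 or 3. miR-216b-5p, Monash less UCLA, was −2.03 (upper quartile), −1.57 (totals), −1.74 (miR-28-3p) and −2.54 to −1.75 with 1 rat left out, lost for 11 rats. The replicate block kept 111 of 112 values on their side.

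Without the 5 TBI+ rats, Monash less UCLA was −1.21, 1.17 and −2.38 for the log2 ratios of miR-216a-5p to miR-217-5p, miR-216b-5p to miR-217-5p and miR-216a-5p to miR-216b-5p, and −1.52 and 1.87 for the arms of miR-216a and miR-216b, all then past the threshold. With 1 rat left out, miR-216a-5p to miR-217-5p was −0.81 to −0.38 (Monash less UCLA, gained without UCLA TBI+ rat 2) and −0.72 to −0.46 (TBI less sham, gained without Monash sham rat 1), miR-216b-5p to miR-217-5p was −1.09 to −0.79 (UEF less Monash, lost for 10 rats), the arms of miR-375 were 0.91 to 1.39 (UEF less Monash, gained without UEF sham rat 4 or UEF TBI− rat 3), and those of miR-216a −1.07 to −0.73 (Monash less UCLA, gained without UCLA TBI+ rat 2). Pearson r of miR-216a-5p and miR-217-5p turned to 0.59 without TMM and 0.56 with miR-28-3p scaling, and that of miR-216b-5p and miR-217-5p was 0.45 to 0.58 with 1 rat left out, lost without UEF sham rat 3, Monash sham rat 1 or UCLA sham rat 3.

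Counts of all miRNAs past the threshold moved by over 1.5 times in several settings. For the sites together 111 became 66 (sham), 40 (injured) and 211 (the 5 TBI+ rats out). For UEF and Monash 75 became 46 (upper quartile), 33 (totals), 18 (miR-28-3p), 31 (block), 35 (sham), 0 (injured) and 157 (5 TBI+ rats out). For UEF and UCLA 70 became 46 (block), 36 (sham) and 40 (injured), and for Monash and UCLA 41 became 21, 23 and, with the 5 TBI+ rats out, 180. For TBI less sham 9 became 17 (10 counts in every rat), 24 (DESeq2), 15 (condition alone), 5 (block), 4 (hemolysis ratio in the model), 0, 21 and 14 (without UEF, Monash or UCLA), 1 (both UEF rats out) and 20 (5 TBI+ rats out). With 1 rat left out, TBI less sham ran from 1 (without UEF sham rat 4) to 16 (Monash sham rat 2), UEF and Monash from 39 (Monash TBI− rat 3) to 117 (Monash TBI+ rat 2), and Monash and UCLA from 25 (Monash sham rat 3) to 59 (UCLA TBI+ rat 1). The 8 miRNAs with an injury effect that differed between sites became 0 to 17 over the settings. Low counts limited the members other than miR-375-3p and miR-217-5p: counting error alone gave a coefficient of variation of 16.2% to 25.0% at their median counts.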
